A study of Mus musculus with 9 samples.

Results

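The genes described here encode proteins of the epithelial tight junction: the claudins Cldn1, Cldn3, Cldn4, Cldn7 and Cldn8, the membrane proteins Ocln and F11r, and the zonula occludens scaffolds Tjp1 and Tjp3. All 17 probe sets annotated to 1 of these 9 symbols alone were taken, of 34958 probe sets of a single gene that cover 18194 genes. The rule for the choice of probe sets uses gene symbols and no measured value, but the genes were picked with earlier results of these data known. RNA was measured on Affymetrix mouse arrays in organoids from yMaSCs, organoids from MaSCs and LD cells of the mammary gland, with 3 biological samples of each lettered A, B and C. LD cells, the luminal differentiated cells, were FACS-sorted as EpCAM-high, CD49f-low and CD61-negative from glands of virgin C57BL/6J mice and used without culture. The yMaSCs were LD cells given lentiviral vectors for wild-type YAP under a doxycycline-inducible promoter and then treated with doxycycline to turn YAP on. Their organoids were kept without doxycycline. MaSCs were a sorted cell fraction enriched in mammary stem cells (EpCAM-low, CD49f-high and CD61-positive), with no added YAP. All organoids were embedded in Matrigel and fed with EGF, bFGF, heparin, noggin and R-spondin 1. A difference of organoids from LD cells therefore cannot be told apart from one between cultured and freshly sorted cells. Organoids hold an inner luminal and an outer basal layer, and in such bulk RNA fewer cells of a type and less RNA per cell cannot be told apart.

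Tight junctions join neighboring epithelial cells near their apical surface. Claudins form strands in the membrane that either seal the space between cells or let selected ions through, and the set of claudins an epithelium makes decides how leaky it is. Occludin, encoded by Ocln, and JAM-A, encoded by F11r, sit beside the strands, whereas the scaffolds ZO-1 (Tjp1) and ZO-3 (Tjp3) tie strands to actin inside the cell. In the mammary gland the junctions lie between luminal cells, keep milk in the lumen and tighten at the onset of lactation.

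Of the 9 genes, 5 were lower in organoids from yMaSCs than in LD cells, 0 were higher and 4 did not pass, by limma with Benjamini-Hochberg adjustment over all genes at 0.05. Over all genes 35.9% passed in this comparison, 14.3% as lower. The counts were also 5, 0 and 4 for organoids from MaSCs against LD cells, where 37.3% of all genes passed and 15.2% were lower. The 5 genes were Cldn1, Cldn4, Cldn7, Ocln and F11r in each comparison, and both comparisons use the same LD arrays. The median log2 difference of the 9 genes was -0.51 in organoids from yMaSCs and -0.66 in organoids from MaSCs, and that of all genes was -0.01 and -0.02 in these comparisons. Of the 17 probe sets, 7 were lower in organoids from yMaSCs and 8 in organoids from MaSCs. Of all probe sets, 34.8% passed in either direction for yMaSCs and 35.9% for MaSCs, and the share of lower ones was not counted. Values are log2 intensities, with the upper quartile of an array at 7.39 to 7.59 and the lower quartile at 3.47 to 3.59, and levels of different probe sets are not compared. The replicates are separate biological samples by their labels, and 3 arrays a group limit the precision.

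**Figure D1:**
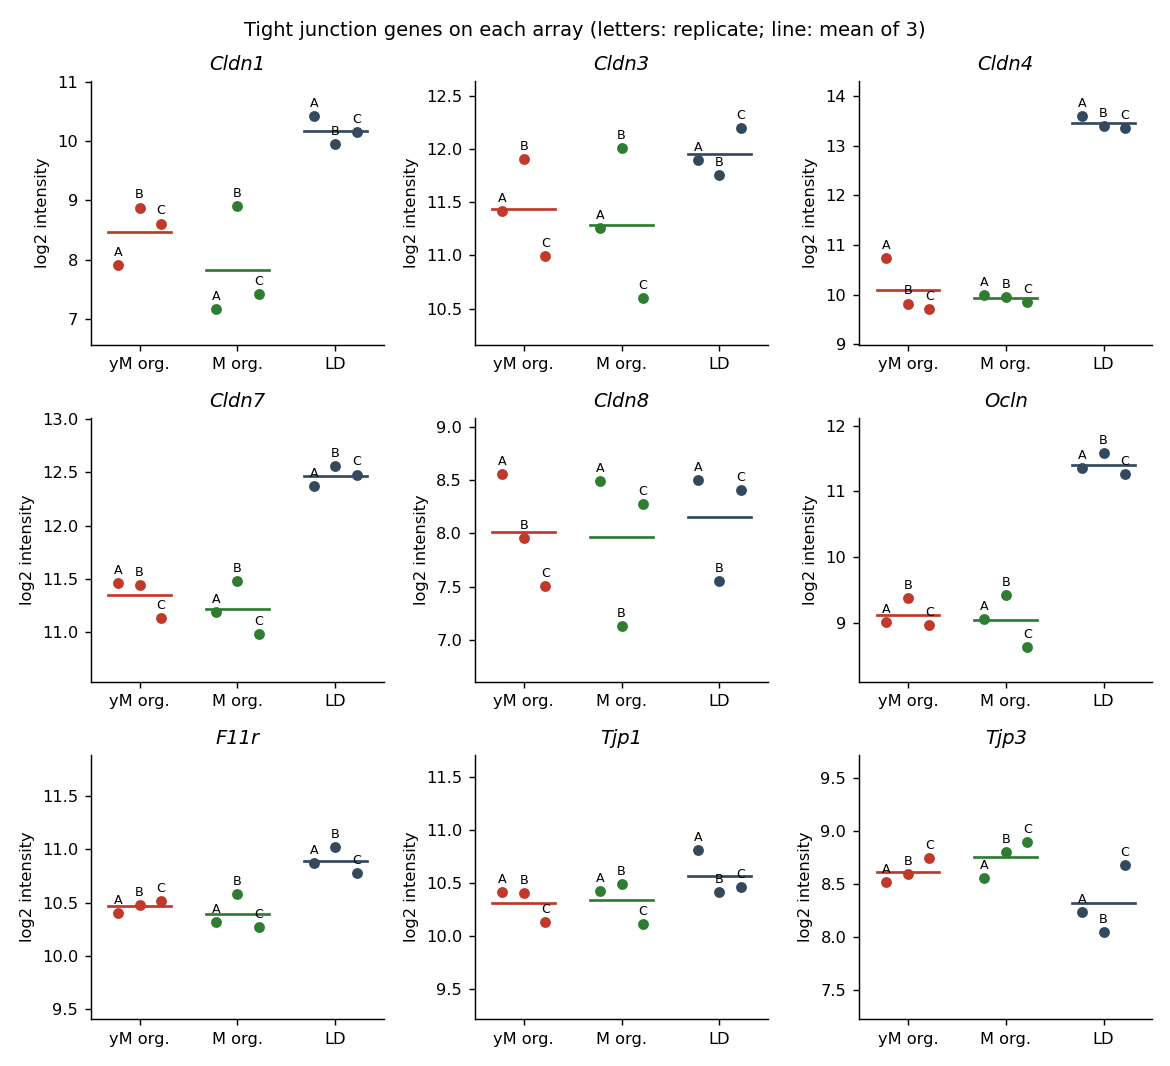
Log2 intensity (vertical axis, scale differs between panels) of the 9 tight junction genes on each array of organoids from yMaSCs (yM org.), organoids from MaSCs (M org.) and LD cells (LD), with the replicate letter above each point and a line at the mean of 3. Cldn4 lies at 9.70 to 10.74 in both kinds of organoid and at 13.37 to 13.60 in LD cells, whereas the groups overlap for Cldn3, Cldn8, Tjp1 and Tjp3.

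Cldn4, a barrier-forming claudin that also binds the enterotoxin of Clostridium perfringens, showed the largest decrease among the 9 genes. It measured 10.74, 9.82 and 9.70 in organoids from yMaSCs, 9.99, 9.95 and 9.85 in organoids from MaSCs, and 13.60, 13.41 and 13.37 in LD cells (A, B, C). All organoid arrays were thus far below all LD arrays, and only array A of the organoids from yMaSCs stood somewhat above the other organoids. The log2 difference from LD cells was -3.37 ± 0.24 (SE, n = 3 each) in organoids from yMaSCs, or 10.4-fold lower (limma, adjusted p = 2.28e-05). In organoids from MaSCs it was -3.53 ± 0.24, or 11.6-fold lower (limma, adjusted p = 1.67e-05). Among all genes, 1.07% differed by as much or more in organoids from yMaSCs and 1.03% in organoids from MaSCs.

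Cldn3, the only other one of the 9 genes on the chromosome of Cldn4, did not pass. Both genes lie on chromosome 5 (GRCm38.p6), Cldn4 at 134945123 to 134946934 and Cldn3 at 134986214 to 134987476, with 39.3 kb between them. Cldn3 measured 11.42, 11.91 and 10.99 in organoids from yMaSCs, 11.26, 12.01 and 10.60 in organoids from MaSCs, and 11.90, 11.76 and 12.20 in LD cells. In each kind of organoid array B lay within the range of the LD arrays and array C lay lowest. The log2 difference from LD cells was -0.51 (95% interval -1.31 to 0.29, limma, adjusted p = 0.297) in organoids from yMaSCs and -0.66 (-1.46 to 0.14, adjusted p = 0.177) in organoids from MaSCs. Without array B of the organoids from MaSCs the second was -1.02 (limma, adjusted p = 0.0366). Its 4 probe sets had correlations of 0.946 to 0.992 with each other over the 9 arrays, and 0 of them passed in either comparison.

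Cldn4 and Ocln had the largest decreases by the probe sets used, whereas Cldn3, 39.3 kb from Cldn4, did not pass. Stretches at the starts of these 3 genes are therefore printed here. They run 5′ to 3′ on the strand of the gene, from 250 bases before to 30 bases after the RefSeq start (GRCm38.p6). They are chr5:134946905-134947184 on the minus strand for Cldn4, chr5:134985964-134986243 on the plus strand for Cldn3 and chr13:100552689-100552968 on the minus strand for Ocln. Capitals mark matches on either strand to CAGGTG, the E-box that Snail and Zeb factors bind, and to TGANTCA, the AP-1 motif.
Cldn4: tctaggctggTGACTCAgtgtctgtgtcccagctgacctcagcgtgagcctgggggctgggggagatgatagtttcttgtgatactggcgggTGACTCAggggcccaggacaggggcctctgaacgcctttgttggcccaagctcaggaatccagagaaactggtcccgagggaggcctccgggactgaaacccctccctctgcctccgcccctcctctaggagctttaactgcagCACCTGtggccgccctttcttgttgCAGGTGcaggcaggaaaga
Cldn3: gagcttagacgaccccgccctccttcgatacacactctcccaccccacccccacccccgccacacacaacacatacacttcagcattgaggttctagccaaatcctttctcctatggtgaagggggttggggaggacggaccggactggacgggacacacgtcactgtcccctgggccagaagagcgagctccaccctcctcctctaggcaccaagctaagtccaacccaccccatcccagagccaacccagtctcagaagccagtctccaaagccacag
Ocln: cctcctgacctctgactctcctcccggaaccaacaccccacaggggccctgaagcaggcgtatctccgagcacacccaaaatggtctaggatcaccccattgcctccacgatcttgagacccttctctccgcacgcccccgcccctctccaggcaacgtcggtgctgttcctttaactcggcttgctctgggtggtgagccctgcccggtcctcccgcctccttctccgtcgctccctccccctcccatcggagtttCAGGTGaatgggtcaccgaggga

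Counted to the first letter of a match, the Cldn4 stretch held 2 E-boxes, 14 bases before and 11 bases after the start, and 2 AP-1 motifs, and that of Ocln held 1 E-box, 7 bases after the start. Cldn3 had its E-box 31 bases after the start, just past the printed stretch. In windows of 250 bases before to 50 after a start, 6 of the 8 genes with a window held the E-box (Cldn3, Cldn4, Cldn7, Ocln, F11r and Tjp3), against 22.6% of 27018 genes. Genes that passed and genes that did not were both among the 6, and a match is a description of letters only. The AP-1 motif was found for 2 of the 8, Cldn4 and F11r (8.98% of all genes), the TEAD motif GGAATG for 1, Cldn7 (16.6%), and the Grainyhead-like core ACCGGT for 0 (2.68%).

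Cldn7 (chromosome 11, 69964779 to 69967886), a claudin that binds the surface protein EpCAM, was lower by a smaller and steady amount. It measured 11.46, 11.44 and 11.13 in organoids from yMaSCs, 11.19, 11.48 and 10.98 in organoids from MaSCs, and 12.37, 12.56 and 12.48 in LD cells. The lowest LD array was above the highest organoid array. Relative to LD cells, Cldn7 was 2.18-fold lower in organoids from yMaSCs (log2 difference -1.13 ± 0.15, SE, limma, adjusted p = 0.000514) and 2.38-fold lower in organoids from MaSCs (-1.25 ± 0.15, adjusted p = 0.00027).

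Cldn1 (chromosome 16, 26356645 to 26371839), a barrier claudin that the skin of mice needs to hold water, was lower in organoids but varied most among them. Its brightest probe set measured 7.91, 8.88 and 8.61 in organoids from yMaSCs, 7.16, 8.91 and 7.42 in organoids from MaSCs, and 10.42, 9.95 and 10.15 in LD cells. The LD arrays were all higher, yet organoid arrays spanned 1.75 on the log2 scale, more than for any other of the 9 genes. The log2 difference from LD cells was -1.71 ± 0.44 (SE, limma, adjusted p = 0.0145) in organoids from yMaSCs and -2.34 ± 0.44 (adjusted p = 0.00291) in organoids from MaSCs. The first call was lost without array A of the organoids from yMaSCs (-1.43, limma, adjusted p = 0.0553), without array A of the LD cells (-1.58, adjusted p = 0.0512) and with array weights (-1.68, adjusted p = 0.0565). A second probe set gave -2.24 for yMaSCs and -3.10 for MaSCs, both past the threshold, while the other 2 probe sets of Cldn1 read 2.15 to 2.70 in all groups, below the lower quartile, and had differences of -0.07 to -0.14. Averaging all 4 probe sets therefore gave -1.03 for yMaSCs (limma, adjusted p = 0.0107) and -1.43 for MaSCs (adjusted p = 0.00198).

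Cldn8 (chromosome 16, 88560826 to 88563183), a claudin known from the distal kidney tubule, where it works together with Cldn4, did not pass. It measured 8.56, 7.96 and 7.51 in organoids from yMaSCs, 8.49, 7.13 and 8.28 in organoids from MaSCs, and 8.50, 7.55 and 8.41 in LD cells. The groups covered the same range. The log2 difference from LD cells was -0.14 (95% interval -1.09 to 0.81, limma, adjusted p = 0.822) in organoids from yMaSCs and -0.19 (-1.14 to 0.76, adjusted p = 0.763) in organoids from MaSCs, so both intervals still hold a 2-fold decrease.

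Ocln (chromosome 13, 100496504 to 100552718), the gene of occludin, was lower in both kinds of organoid. It measured 9.01, 9.38 and 8.97 in organoids from yMaSCs, 9.06, 9.43 and 8.64 in organoids from MaSCs, and 11.35, 11.58 and 11.26 in LD cells. No organoid array came within 1 log2 of an LD array. It was 4.85-fold lower than in LD cells in organoids from yMaSCs (log2 difference -2.28 ± 0.21, SE, limma, adjusted p = 6.79e-05) and 5.11-fold lower in organoids from MaSCs (-2.35 ± 0.21, adjusted p = 5.33e-05). A second, dimmer probe set gave -1.67 for yMaSCs and -1.76 for MaSCs and passed in both comparisons.

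F11r (chromosome 1, 171437561 to 171464593), which encodes the adhesion molecule JAM-A, was lower by a small amount. It measured 10.40, 10.48 and 10.51 in organoids from yMaSCs, 10.32, 10.58 and 10.27 in organoids from MaSCs, and 10.87, 11.02 and 10.78 in LD cells. The groups did not overlap, although array B of the organoids from MaSCs came close to array C of the LD cells. Relative to LD cells it was 1.34-fold lower in organoids from yMaSCs (log2 difference -0.43 ± 0.11, SE, limma, adjusted p = 0.0181) and 1.41-fold lower in organoids from MaSCs (-0.50 ± 0.11, adjusted p = 0.00828). The first call was lost without array A or array B of the organoids from yMaSCs (limma, adjusted p = 0.0636 and 0.0507). A second probe set near the lower quartile passed against LD cells in organoids from MaSCs (-0.36, limma, adjusted p = 0.0187) but not in organoids from yMaSCs (-0.14, adjusted p = 0.293). Leukocytes also make JAM-A, and their marker Ptprc (CD45) read 2.64 to 2.99 in organoids and 8.17 to 8.94 in LD cells. The mean over 5 measured leukocyte markers was 4.22 to 4.86 in organoids and 5.91 to 6.39 in LD cells, and their part in the F11r result was not tested.

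The scaffold genes Tjp1 (chromosome 7, 65296165 to 65527850) and Tjp3 (chromosome 10, 81273188 to 81291581) did not pass in either direction. Tjp1 (ZO-1) measured 10.41, 10.40 and 10.13 in organoids from yMaSCs, 10.42, 10.49 and 10.11 in organoids from MaSCs, and 10.81, 10.41 and 10.46 in LD cells. These values overlapped, and the intervals exclude a 2-fold change, at -0.25 (95% interval -0.60 to 0.10, limma, adjusted p = 0.252) in organoids from yMaSCs and -0.22 (-0.57 to 0.13, adjusted p = 0.302) in organoids from MaSCs. Tjp3 (ZO-3), which is found in epithelia, measured 8.52, 8.59 and 8.74 in organoids from yMaSCs, 8.56, 8.80 and 8.89 in organoids from MaSCs, and 8.24, 8.05 and 8.68 in LD cells. It was the only one of the 9 genes with a higher mean in organoids than in LD cells, with log2 differences of 0.29 (-0.09 to 0.68, limma, adjusted p = 0.218) for yMaSCs and 0.43 (0.04 to 0.81, adjusted p = 0.0802) for MaSCs. Array C of the LD cells reached the organoid range, and without it both differences passed (0.47 for yMaSCs, limma, adjusted p = 0.0329, and 0.61 for MaSCs, adjusted p = 0.0116). The plot of differences for every probe set sets the scaffolds beside the claudins.

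**Figure D2:**
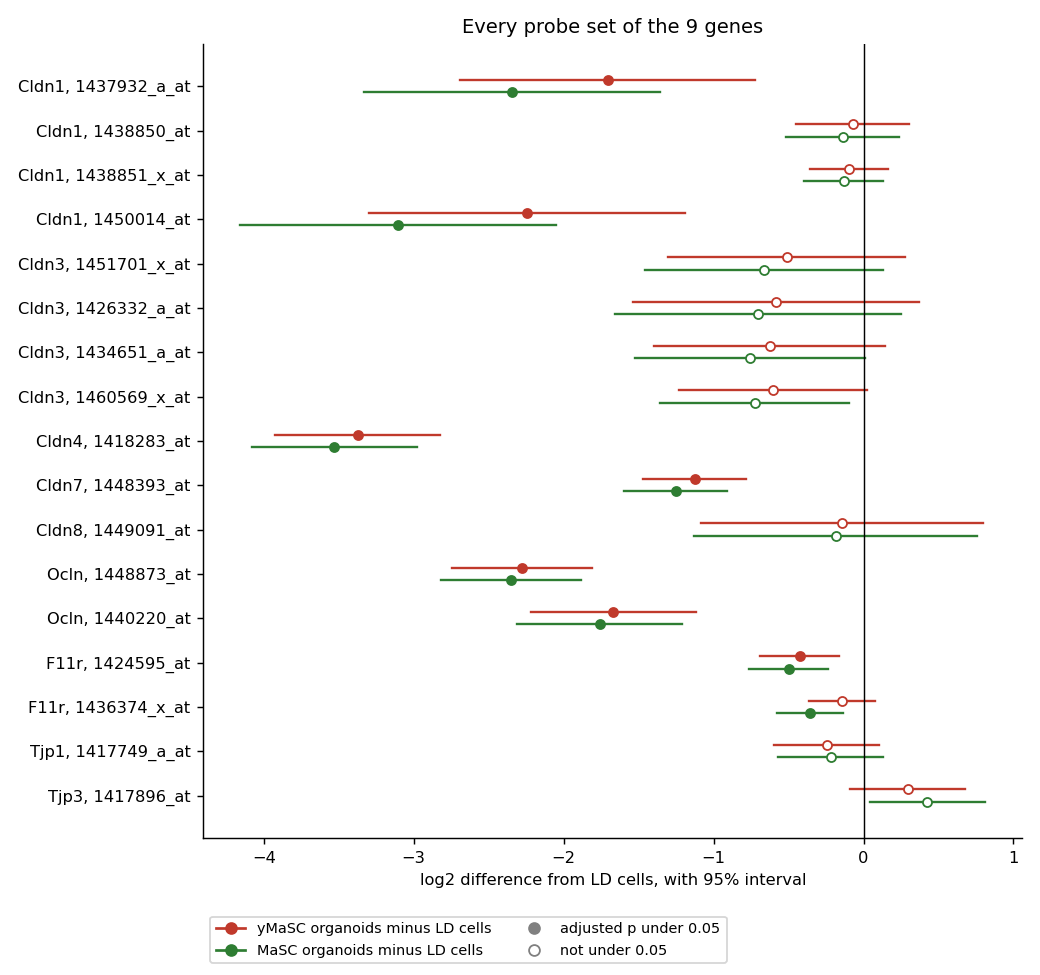
Log2 difference from LD cells (horizontal axis) with its 95% interval for each of the 17 probe sets, in organoids from yMaSCs (red) and organoids from MaSCs (green), with filled points at a limma adjusted p under 0.05. Cldn4 lies furthest from 0 at -3.37 (yMaSCs) and -3.53 (MaSCs), all 4 probe sets of Cldn3 have open points, and Tjp3 alone lies to the right of 0.

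Between organoids from yMaSCs and organoids from MaSCs, 0 of the 9 genes and 0 of all 18194 genes passed (percent of all genes 0, lowest limma adjusted p = 1, 104 genes at an unadjusted p under 0.05). This fit did not pair the organoids by letter. Variation shared by same-letter organoids therefore adds to its error and raises its p-values, so the count of 104 does not measure likeness. With the letter as a replicate block in the organoid arrays alone, 0 of the 9 genes passed too. Without the block, the 9 differences ran from -0.13 for Tjp3 to 0.64 for Cldn1. For 8 genes the 95% interval excluded a 2-fold difference (1 log2) in either direction, as for 93.2% of all genes. For Cldn4 the difference was 0.16 (-0.40 to 0.71), for Cldn7 0.13 (-0.21 to 0.47) and for Ocln 0.08 (-0.39 to 0.54).

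Cldn1 was the exception, with an interval of -0.36 to 1.63. Organoids from yMaSCs were higher than organoids from MaSCs by 0.75 in letter A and 1.19 in letter C and differed by -0.03 in letter B. With the letter as a replicate block in the organoid arrays alone, the interval was 0.05 to 1.22 and the limma adjusted p 0.964. Ocln and Tjp1 differed by -0.05 to 0.33 and by -0.09 to 0.02 between organoids of the same letter, a narrower range than for Cldn8, at -0.77 to 0.83.

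Same-letter organoids varied together in some of these genes. For Cldn3 both B arrays were high and both C arrays low, with means over both kinds of organoid of 11.34 for A, 11.96 for B and 10.80 for C. A limma test of the letter among the 6 organoid arrays, with the kind of organoid in the model, passed for Cldn3 (adjusted p = 0.0312) and for 0 of the other 8 genes, and it passed for 5.52% of all genes. Refits without any 1 of the organoid arrays, an alternative chosen after seeing the data, leave only 1 array for a letter. They are too weak for any gene and cannot say whether the Cldn3 result rests on 1 array. Cldn1 also read highest in B in both kinds of organoid (limma letter test on all 6 arrays, adjusted p = 0.0972) and so did Ocln (same test, adjusted p = 0.104). Array C of both kinds also had the highest mean over 7 basal markers, 9.00 in organoids from yMaSCs and 9.76 in organoids from MaSCs, where the other organoid arrays had 8.17 to 8.42. It also had the highest mean over 4 measured hormone-sensing luminal markers, 9.11 in organoids from yMaSCs and 9.79 in organoids from MaSCs, where the other organoid arrays had 7.88 to 8.28. The part of the cell mixture in the letter differences was not tested.

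**Figure D3:**
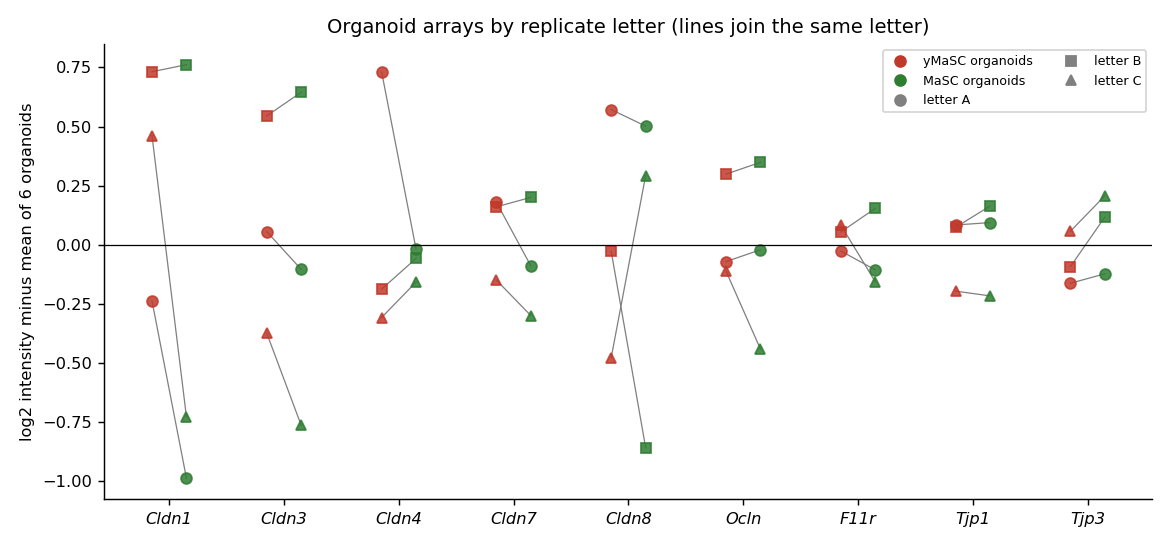
Log2 intensity minus the mean of the 6 organoid arrays (vertical axis) for each of the 9 genes, with organoids from yMaSCs (red) left of organoids from MaSCs (green) and lines joining arrays of the same letter. Cldn3 keeps the order B, A, C in both kinds, while the lines of Cldn8 cross.

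RNA levels of several cell type markers differed between organoids and LD cells. The mean over 7 basal markers was 8.17 to 9.76 in organoids and 5.38 to 5.78 in LD cells, and p63 (Trp63), which defines basal cells, read 8.57 to 9.34 in organoids and 3.60 to 3.98 in LD cells. The mean over 6 luminal markers was 12.57 to 12.87 in organoids and 13.54 to 13.74 in LD cells, and over 4 measured hormone-sensing luminal markers it was 7.88 to 9.79 in organoids and 10.95 to 11.20 in LD cells. The luminal keratin Krt8 had log2 differences from LD cells of -0.90 in organoids from yMaSCs and -0.93 in organoids from MaSCs. Not all markers differed. The mean over 3 luminal progenitor markers was 9.88 to 10.47 in organoids and 9.70 to 10.21 in LD cells. Of the 7 basal markers, Myh11 passed in neither comparison, and Krt14 did not pass in organoids from MaSCs (limma, adjusted p = 0.053). The part of the cell mixture in the results for the 9 genes was not tested. Array B of the LD cells stood apart from LD arrays A and C. Its mean over 5 endothelial markers was 5.74 against 3.65 to 3.80, and over 5 fibroblast markers 7.14 against 6.12 to 6.21. Its mean over 2 measured adipocyte markers was 7.10 against 3.43 to 3.50. That mean rested on Fabp4, at 10.92 in array B, as Adipoq read 3.28 there, below the lower quartile. Without array B of the LD cells, 5 of the 9 genes passed in each comparison with LD cells.

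Other genes of the junction and of its regulation moved in both directions. Of 62 measured genes in lists that cover other claudins, membrane proteins, scaffolds, polarity complexes, claudin partners and transcription factors, 11 were higher, 22 lower and 29 not past the threshold in organoids from yMaSCs against LD cells. In organoids from MaSCs the counts were 12, 21 and 29. Over all genes, 21.6% were higher and 14.3% lower for yMaSCs, and 22.1% were higher and 15.2% lower for MaSCs. The median log2 differences of the 62 genes were -0.21 for yMaSCs and -0.27 for MaSCs, and 0 passed between the organoids. The shares over all genes are also the background for the counts of each list below, and each list holds few genes.

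Among 15 other measured claudins, Cldn2 was the only one that was higher in organoids. Cldn2 forms a channel for cations and water and is typical of leaky epithelia. It measured 6.62, 7.78 and 8.17 in organoids from yMaSCs, 7.27, 8.01 and 8.70 in organoids from MaSCs, and 4.52, 4.84 and 5.21 in LD cells. The groups were well apart, and the log2 difference was 2.67 in organoids from yMaSCs (6.35-fold, limma, adjusted p = 0.00186) and 3.14 in organoids from MaSCs (8.79-fold, adjusted p = 0.000737). Its other probe set gave much smaller differences of 0.65 for yMaSCs (limma, adjusted p = 0.0352) and 0.83 for MaSCs (adjusted p = 0.0112). For the genes that follow, differences are log2 differences of organoids from LD cells. Cldn23 was lower (-2.11 for yMaSCs, -2.40 for MaSCs), as were Cldn6, a claudin of embryonic epithelia (-2.17 for yMaSCs, -1.56 for MaSCs), and the ion-channel claudin Cldn10 (-1.94 for yMaSCs, -1.52 for MaSCs). In all, 4 other claudins were lower in organoids from yMaSCs, with Cldn15 besides these, and 3 in organoids from MaSCs. The endothelial claudin Cldn5 did not pass and is named, outside the naming rule and after its values were seen, because it read 7.57 in array B of the LD cells and 3.80 to 4.27 elsewhere.

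Genes of contacts where 3 cells meet went separate ways. Marveld2 (tricellulin) was lower (-1.23 for yMaSCs, limma, adjusted p = 0.0023, and -1.33 for MaSCs, adjusted p = 0.00144), and so was Lsr by its brightest probe set (-0.77 for yMaSCs, -0.68 for MaSCs). Another probe set of Lsr did not pass (-0.05 for yMaSCs, 0.05 for MaSCs). Ildr1, which like Lsr recruits tricellulin, was higher (1.23 for yMaSCs, 1.20 for MaSCs), and Marveld3, of the same protein family as occludin, was higher too (0.88 for yMaSCs, 0.94 for MaSCs), with 1 of its 3 probe sets not passing (0.06 for yMaSCs, -0.06 for MaSCs). The remaining 6 of 10 membrane proteins did not pass. Of 9 measured scaffolds, Cgnl1 (paracingulin) showed the largest change, with 10.83, 10.96 and 10.31 in organoids from yMaSCs, 10.83, 10.92 and 10.41 in organoids from MaSCs, and 8.66, 8.37 and 8.84 in LD cells. It was higher by 2.08 for yMaSCs (limma, adjusted p = 0.000123) and by 2.10 for MaSCs (adjusted p = 0.000106), and 4 of its 5 probe sets passed. Mpdz was higher (0.79 for yMaSCs, 0.78 for MaSCs) and Magi1 lower (-0.96 for yMaSCs, -0.87 for MaSCs), by their brightest probe sets. The other 3 probe sets of Mpdz did not pass, and of the other 4 of Magi1 1 passed as lower (-0.95 for yMaSCs, -0.69 for MaSCs) and 3 did not pass. Patj was higher in organoids from MaSCs by its brightest probe set (0.88) and lower by another (-1.14), and neither passed in organoids from yMaSCs. Its remaining probe sets, at 0.20 and 0.26 for MaSCs, passed in neither comparison.

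Of 9 apical polarity genes, 5 were lower and 2 higher in each comparison with LD cells. Over all genes, 14.3% were lower and 21.6% higher for yMaSCs, and 15.2% lower and 22.1% higher for MaSCs. Pard6b, an adaptor of the PAR complex, fell by 2.10 in organoids from yMaSCs and by 2.21 in organoids from MaSCs, while its relative Pard6a was higher by 0.92 for yMaSCs and 0.89 for MaSCs. Mpp5 (Pals1), which links the Crumbs complex to the junction, read 9.46 to 9.67 in organoids from yMaSCs, 9.28 to 9.78 in organoids from MaSCs and 10.56 to 10.58 in LD cells. It was lower in both (limma, adjusted p = 0.000524 for yMaSCs and 0.000483 for MaSCs), and so was Pard3b (-0.87 for yMaSCs, -1.01 for MaSCs). Another probe set of Pard3b gave -1.70 for yMaSCs and -1.71 for MaSCs, and a further one did not pass (-0.16 for yMaSCs, -0.40 for MaSCs). For Mpp5, 1 of 3 probe sets did not pass in organoids from MaSCs (-0.62, limma, adjusted p = 0.0564). Of 4 measured genes for claudin partners, surface proteases and protease inhibitors, 3 were lower and 1 did not pass. Epcam, which binds Cldn7, was lower (-0.66 for yMaSCs, -0.66 for MaSCs). So were the protease matriptase, St14 (-0.69 for yMaSCs, -0.67 for MaSCs), and its inhibitor Spint1 (-0.84 for yMaSCs, -0.80 for MaSCs). LD cells had been sorted for high EpCAM.

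Transcription factors known to raise epithelial junction genes were split, with 3 higher and 4 lower of 9 in each comparison. Klf4 read 5.92, 5.76 and 7.64 in organoids from yMaSCs, 5.75, 5.60 and 6.17 in organoids from MaSCs, and 12.05, 11.65 and 11.59 in LD cells. It was 40.0-fold lower for yMaSCs (limma, adjusted p = 4.53e-05) and 60.7-fold lower for MaSCs (adjusted p = 2.46e-05), the largest change among the 62 genes. Ovol1 (-3.25 for yMaSCs, -3.33 for MaSCs) and Klf5 (-2.85 for yMaSCs, -3.06 for MaSCs) were lower, and Elf5, an ETS factor of luminal progenitors and alveolar cells, was higher (2.73 for yMaSCs, 2.78 for MaSCs). The other probe set of Ovol1 gave -1.38 for yMaSCs and -1.55 for MaSCs. For Klf5, 1 of 3 probe sets gave only -0.43 for yMaSCs (limma, adjusted p = 0.0617) and -0.47 for MaSCs (adjusted p = 0.0432). Grhl2 and Ovol2 were also higher and Elf3 lower in both comparisons.

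Of 6 measured repressors, Snai2 (Slug), which can silence claudin and occludin genes and is made by basal cells, was the only one that was higher. It measured 8.03, 7.46 and 8.37 in organoids from yMaSCs, 7.46, 7.21 and 9.09 in organoids from MaSCs, and 4.12, 4.15 and 3.70 in LD cells. The log2 difference was 3.96 for yMaSCs (limma, adjusted p = 0.000238) and 3.93 for MaSCs (adjusted p = 0.000233). In LD cells this probe set was near the lower quartile, and the other probe set of Snai2 gave 1.88 for yMaSCs and 1.90 for MaSCs, both past the threshold. Zeb1 was lower (-0.53 for yMaSCs, -0.58 for MaSCs). Among its other 3 probe sets the differences ran from -1.87 to -0.10 for yMaSCs and from -2.14 to -0.07 for MaSCs, and the one nearest 0 did not pass (limma, adjusted p = 0.693 for yMaSCs and 0.791 for MaSCs). Genes past the threshold that the naming rule left to the counts were, besides those just given, Afdn and Ybx3 among scaffolds and Prkci and Crb3 among polarity genes, all lower, and the higher Prkcz.

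**Figure D4:**
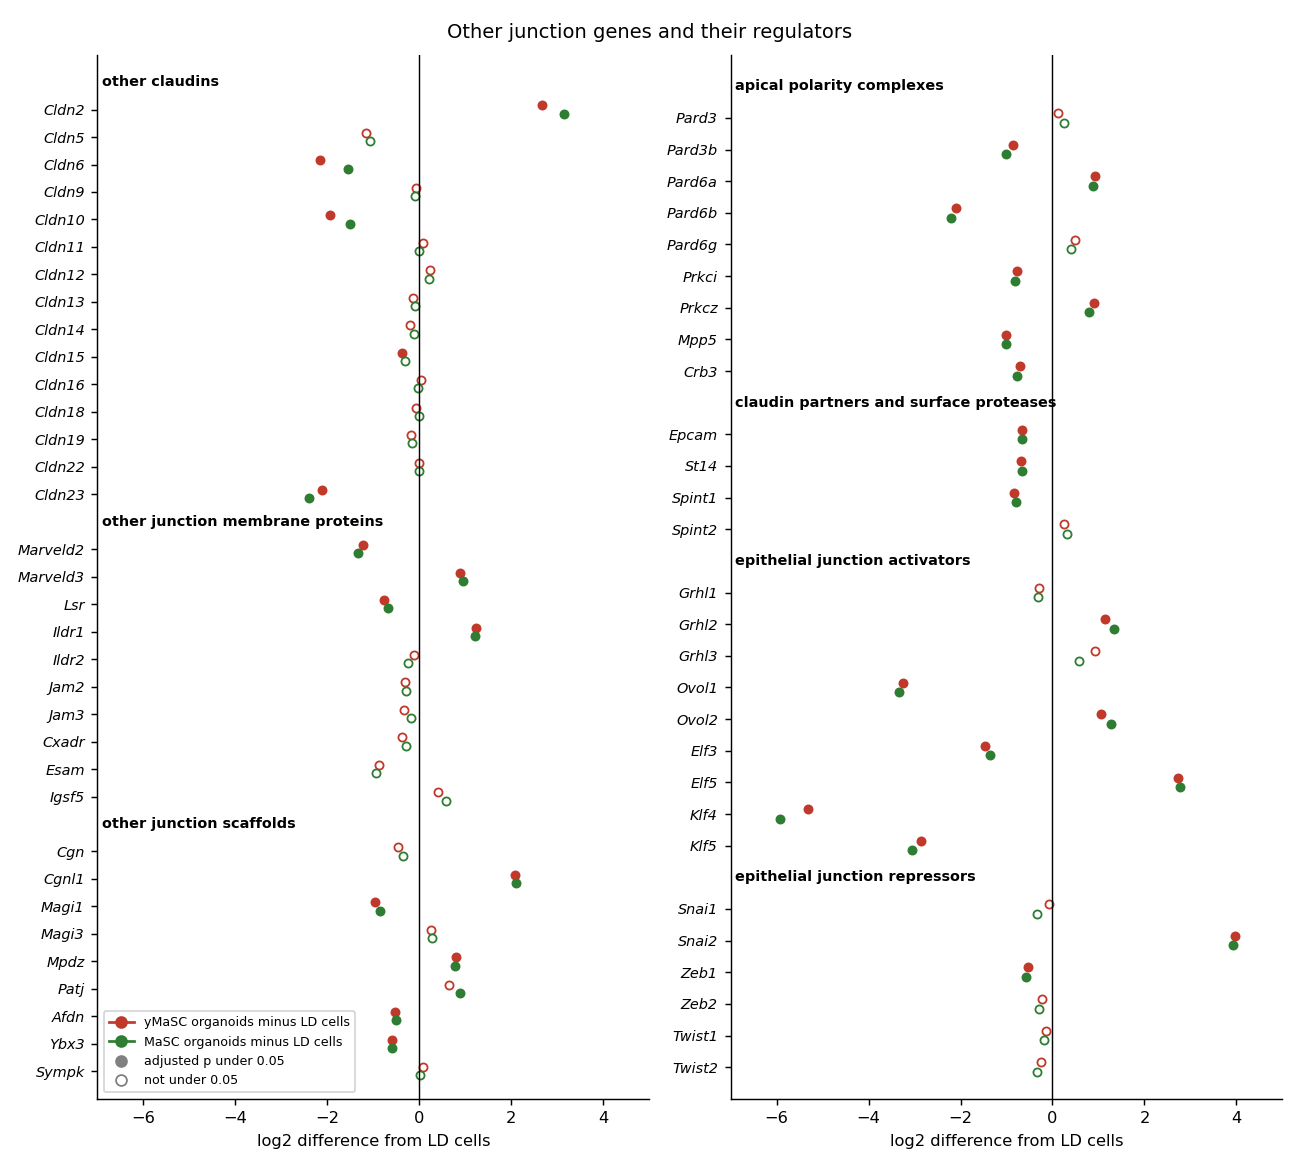
Log2 difference from LD cells (horizontal axis) of 62 other junction genes and regulators by list, in organoids from yMaSCs (red) and organoids from MaSCs (green), with filled points at a limma adjusted p under 0.05. Cldn2, Cgnl1, Elf5 and Snai2 lie furthest to the right in their lists, and Klf4 lies at -5.32 (yMaSCs) and -5.92 (MaSCs).

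Over the 9 arrays, which fall into organoids and LD cells, the 9 genes did not share one pattern. The Pearson correlation of Cldn4 was 0.965 with Cldn7 and 0.962 with Ocln, against 0.563 with Cldn3 and -0.709 with Tjp3. Within the 6 organoid arrays, Cldn3 had a correlation of 0.976 with Ocln and 0.925 with Cldn7 but 0.138 with Cldn4. These arrays include pairs of the same letter, and the values are descriptions. Of all genes, those most like Cldn4 over the 9 arrays were Ndfip2 (r = 0.996), Ddx39a (0.996) and Itpkc (0.995), and those most like Ocln were Gpat3 (0.997), Edn1 (0.996) and Mybl1 (0.996). Ndfip2 encodes an adaptor of ubiquitin ligases and Edn1 the peptide endothelin. For Cldn7 they were Map2k3, Arf2 and Eif6 (0.992, 0.992 and 0.992), for Cldn1 Krt7, P4htm and Napa (0.974, 0.962 and 0.962), and for F11r Cd44, Zfp800 and Sbsn (0.990, 0.986 and 0.985). Krt7 is a keratin of simple epithelia and Cd44 a receptor for hyaluronan. For Cldn3 they were Ppard, Traf6 and Ifngr1 (0.980, 0.947 and 0.946), and for Tjp3 Akr7a5, Nt5c3b and Sh3bp1 (0.963, 0.953 and 0.953). Cldn8 was most like Uso1, Crnkl1 and 1700009J07Rik (0.924, 0.886 and 0.881) and Tjp1 most like Ctsj, Git1 and Med13l (0.995, 0.976 and 0.972). The SDs over the arrays of all these like genes ran from 0.0646 for Ctsj to 2.17 for Gpat3.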

How the data were processed

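Total RNA from 9 samples (3 each of organoids from yMaSCs, organoids from MaSCs and LD cells) was isolated with Trizol, labeled as biotinylated cRNA and hybridized to Affymetrix mouse arrays. The deposited values are log2 intensities that the authors computed by RMA, which corrects background, normalizes by quantiles and summarizes probes, so small differences of dim or saturated probe sets can be compressed. Which RMA release they used was not given in the sources used here. Columns of other samples numbered 0. Of 45101 probe sets, 34958 had 1 gene in the array's annotation, 932 had several and 9211 none, and only those of 1 gene were used, each gene by its probe set with the highest mean.

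With R 4.3.3 and limma 3.58.1, the 3 groups were fitted to all 18194 genes (and to all probe sets of 1 gene), with Benjamini-Hochberg adjustment over all of them, a threshold of 0.05 and no filter on low values. For the 9 genes, and for genes named by the rule below in the other lists, probe sets that differ in call are given beside them. Other named genes are given by their brightest probe set alone. No test for the arrays was found in the sources used here. Genes were named by rule: all 9 genes, up to 4 genes of largest change past the threshold in each other list, and the 3 genes most correlated with each of the 9. The genes and lists were chosen with earlier results of these data known. To check the letters, each array's deviations from its group mean were correlated. Same-letter organoids had r of 0.607, 0.611 and 0.649, and every same-letter pair of an LD array and an organoid array was under 0.1, so the letters were taken to pair the organoids only. The labels do not say whether same-letter samples come from the same mice. The group fit was tried on simulated data with independent noise on each array and no letter effect. That trial therefore does not cover organoids paired by letter or the letter test. Promoter sequences and positions are from RefSeq tables (GRCm38.p6), in which Cldn8 had no promoter entry. Alternatives were the letter as a block, other rules for probe sets, other normalizations, a brightness filter, other spread models, the compared groups alone and each array left out.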

Additional observations from a re-analysis of the deposited data

How the results depend on the processing

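Under the alternatives, 185 of 189 recomputed values for organoids from MaSCs against LD cells kept their direction and call, as did 180 of 189 for organoids from yMaSCs against LD cells and 186 of 198 between the organoids. In many of these the difference itself was the same by design, and only the call could change. These were the letter as a block, the brightness filter, the trended spread model and the compared groups alone. Leaving out an array of a group not compared also kept the difference. Leaving out each array in turn, 3 to 6 of the 9 genes passed in organoids from yMaSCs against LD cells, with 3 without array A of the organoids from yMaSCs, and 5 to 6 passed in organoids from MaSCs. Calls over all 18194 genes also changed in these fits. For yMaSCs they ran from 5129 to 6388, with 5406 without that array A and 6531 with all arrays. For MaSCs they ran from 5332 to 6928, with 6791 with all arrays. Of the other junction genes, 29 to 35 passed in organoids from yMaSCs and 31 to 34 in organoids from MaSCs. Between the organoids 0 passed in every such fit, and the letter test gave 0 genes in each. With the letter as a replicate block over all arrays, Tjp3 passed in organoids from MaSCs against LD cells (0.43, limma, adjusted p = 0.0373), and the block changed no other call of the 9 genes.

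The sign turned for differences that never passed. With an array left out, Cldn8 ranged from -0.45 to 0.11 in organoids from yMaSCs and from -0.49 to 0.23 in organoids from MaSCs, each against LD cells. Between the organoids the ranges were -0.20 to 0.51 for Cldn3, -0.17 to 0.35 for Cldn4, -0.38 to 0.31 for Cldn8, -0.13 to 0.27 for Ocln and -0.14 to 0.065 for Tjp1. Without both organoids of letter C, the difference was 0.11 for Cldn8 in organoids from yMaSCs against LD cells, and -0.05 for Ocln and -0.01 for F11r between the organoids. The cause was not tested. No scaling moved the median of all genes by over 0.1. Where a group lies near the lower quartile, as in 2 probe sets of Cldn1, a change may not be detectable.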
